A study of Mus musculus with 14 samples.

Results

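The collagen genes were the 37 mouse genes whose symbol is Col, a number, a and a number and that had a value in at least 1 of the 4 tables of this study, out of 16545 named genes in all and 44 collagen genes in RefSeq. They were sorted into 10 fibrillar collagens, 6 basement membrane collagens and 21 other collagens. The cells were muscle stem cells (MuSCs) of mouse skeletal muscle, grown without treatment on Matrigel, a basement membrane extract, in DMEM with fetal bovine serum. Lin28a+ MuSCs were sorted by flow cytometry from Lin28a-CreERT2; LSL-tdTomato mice, in which cells that express the RNA-binding protein Lin28a carry a red fluorescent reporter once Cre is active, and were set against control MuSCs. The age of the mice, the alleles of the control cells and the induction of Cre are not given in the sources used here. Of the 14 libraries, 2 input (RNA-seq), 2 m6A-RIP and 2 Igf2bp3-RIP came from control MuSCs and as many from Lin28a+ MuSCs, which also gave 2 of Lin28a-RIP. m6A-RIP pulls down RNA with an antibody against N6-methyladenosine, and the other RIPs pull down RNA bound by Igf2bp3, a reader of this mark, or by Lin28a. Nothing in the sources says that libraries of a group came from separate animals, so the p-values measure the spread between these libraries only.

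Collagens are the main structural proteins of the extracellular matrix, built from chains wound into a triple helix. Fibrillar collagens (such as types I, III and V) assemble into the fibrils of connective tissue, whereas type IV and type XVIII collagens lie in the basement membrane, the sheet that separates the MuSC from the space between muscle fibres. MuSCs make some collagens themselves, and fibroblasts make most of the fibrillar collagen of muscle. In the endoplasmic reticulum collagen chains are hydroxylated and folded, and outside the cell their ends are trimmed and the fibrils are cross-linked by lysyl oxidases.

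The total per library was 4842915 to 6220960 estimated counts in the input, 21350962 to 31830638 counts in the m6A-RIP, 9215355 to 34142094 in the Igf2bp3-RIP and 33908110 to 36610494 in the Lin28a-RIP. The myogenic factor Myod1 stood at 4651 and 4713 CPM (counts scaled to the size of the library) in control input and at 4723 and 4728 CPM in Lin28a+ input. Of the 8 myogenic markers, 3 rose and 3 fell, where 56.8% of all genes were called in either direction. Myog, a factor of differentiating muscle cells, went from 766 and 775 to 2769 and 2809 CPM. Cdh15 went from 1326 and 1390 to 2272 and 2350 CPM and Pax7 from 142.5 and 154.5 to 193.4 and 188.1 CPM. The 3 that fell were Myf5, from 451 and 465 to 197 and 200.4 CPM, Des, from 1683 and 1730 to 1188 and 1184 CPM, and Vcam1, from 16.9 and 18.3 to 3.93 and 5.32 CPM. Their part in the collagen changes was not tested. Of 8 fibroblast markers, 4 had values, and their summed level was 4.5 to 5.31 CPM in control against 13.1 to 14 CPM in Lin28a+ input, nearly all of it Ly6a. Pdgfra, a defining fibroblast receptor, was at 0.187 and 0.161 CPM in control input, compared with 0 in both Lin28a+ libraries. Scx, a tendon factor, had a level of 65.9 and 66.6 CPM in control against 138 and 144 CPM in Lin28a+ input. Endothelial, macrophage and Schwann cell markers together had summed levels of at most 2.62 CPM per list in any library. The pericyte or smooth muscle list stood at 5400 to 5440 CPM in control against 7430 to 7440 CPM in Lin28a+ input and consisted almost wholly of Acta2. Its pericyte markers went apart, with Rgs5 at 2.44 and 2.09 CPM in control against 0.197 and 0.204 CPM in Lin28a+ input and Pdgfrb at 1.87 and 1.61 CPM against 3.93 and 4.50 CPM.

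In RNA, collagens fell more often than they rose, and the direction differed by chain. Of 32 collagens in the input, 17 had enough counts to be tested, and 4 were higher and 9 lower in Lin28a+ MuSCs at an adjusted p under 0.05 (edgeR quasi-likelihood test). Among all 11317 genes tested, 28.1% were higher and 28.7% lower, 56.8% in either direction, so a call in itself was common. The median log2 fold change (Lin28a+ minus control) was -0.50 over the 17 collagens and 0.01 over all genes. Among 8 fibrillar collagens 2 rose and 4 fell (median -0.09), among 3 basement membrane collagens 2 rose and 1 fell (median 0.73), and among 6 other collagens none rose and 4 fell (median -0.81). These class medians rest on few genes. The fibrillar median was -0.43 without control replicate 1 and -0.62 without Lin28a+ library a. That of the basement membrane was -0.52 without control replicate 1 and -0.42 or -0.21 without either Lin28a+ library, where more low genes were tested. In bulk RNA, fewer cells of a type and less RNA per cell cannot be told apart.

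Among the fibrillar collagens, Col1a2 and Col5a2 fell most, and the chains of a type were not tested against each other. Col1a2, a chain of type I collagen, was at 42.1 and 42.6 CPM in control input and at 1.97 and 1.23 CPM in Lin28a+ input, with no overlap between the groups, as for 84.8% of all genes tested. It fell by 4.71 ± 0.12 (log2 fold change ± SE, adjusted p = 7.7e-06), which is 26.1-fold. Its partner chain Col1a1 was low throughout, at 0.187 and 1.93 CPM in control against 1.97 and 0.409 CPM in Lin28a+ input, and the libraries of each group differed by more than the groups did. Col5a2, a type V chain that sits within type I fibrils, was at 292 and 298 CPM in control against 103 and 108 CPM in Lin28a+ input. It fell by 1.49 ± 0.03 (adjusted p = 5.3e-06), or 2.80-fold. Col5a1, the other main type V chain, was at 391 and 414 CPM in control against 373 and 361 CPM in Lin28a+ input. The difference of -0.13 ± 0.04 passed the threshold (adjusted p = 0.024) but not with scaling to total counts (adjusted p = 0.093) or in DESeq2 (adjusted p = 0.18). Col5a3, another type V chain, was at 15.7 and 17.1 CPM in control against 11.99 and 7.77 CPM in Lin28a+ input, a log2 fold change of -0.73 ± 0.18 (adjusted p = 0.016).

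Col3a1, the chain of type III collagen, was at 121 and 120 CPM in control against 116 and 117 CPM in Lin28a+ input. Its difference of -0.05 ± 0.03 did not pass the test (adjusted p = 0.51). A pair of low fibrillar genes rose. Col27a1, a cartilage-type fibrillar chain, was at 1.69 and 1.13 CPM in control against 2.95 and 3.07 CPM in Lin28a+ input, with a log2 fold change of 1.11 ± 0.25 (adjusted p = 0.020). Col11a1, which shares chain families with type V collagen, rose by 2.10 ± 0.31 on the log2 scale (adjusted p = 0.0021). DESeq2 called neither (adjusted p = 0.40 for Col27a1 and 0.17 for Col11a1), nor Col5a3 (adjusted p = 0.14).

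The basement membrane collagens split by type. Col4a1 and Col4a2 encode the chains of the common type IV collagen network and lie head to head on chromosome 8. Col4a1 was at 98.2 and 95.6 CPM in control against 185 and 188 CPM in Lin28a+ input, and rose by 0.94 ± 0.03 (adjusted p = 1.3e-05). Col4a2 was at 250 and 252 CPM in control against 428 and 405 CPM in Lin28a+ input, and rose by 0.73 ± 0.03 (adjusted p = 3.8e-05). Both Lin28a+ libraries stood above both control libraries for each chain, 1.92-fold in the mean for Col4a1 and 1.66-fold for Col4a2. Col18a1 encodes type XVIII collagen, whose C-terminal fragment is endostatin. It was at 440 and 457 CPM in control against 31.4 and 29.2 CPM in Lin28a+ input, and fell by 3.88 ± 0.05 (adjusted p = 1.4e-06), or 14.8-fold. Col4a3, Col4a4 and Col4a5, chains of the specialised type IV networks of kidney and other tissues, had at most 15 counts in any input library and were not tested.

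**Figure D1:**
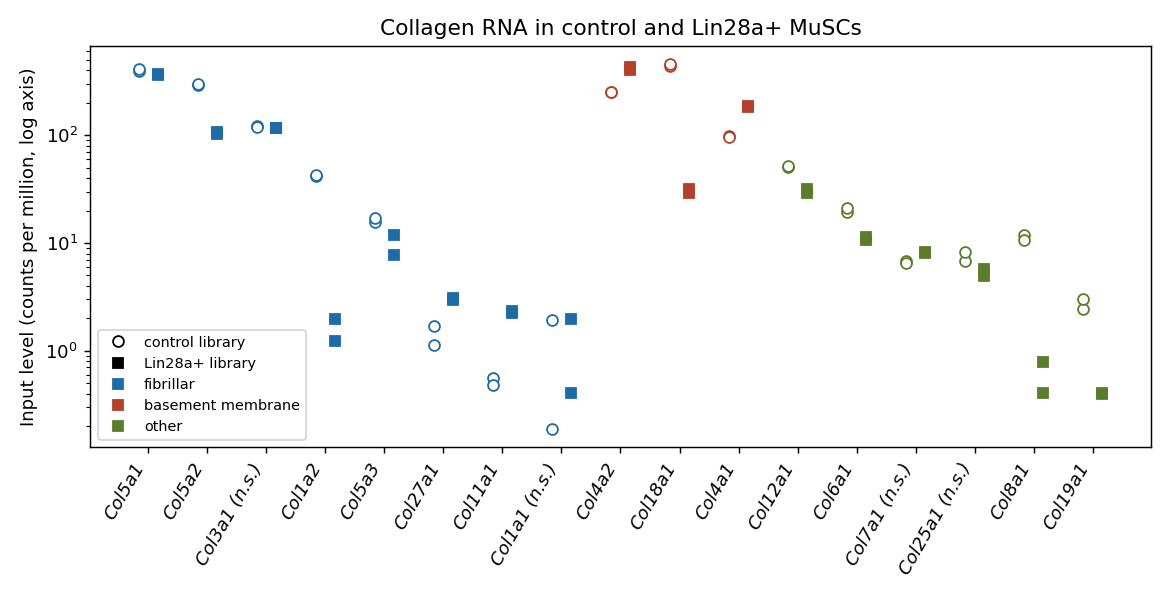
Input level of the 17 tested collagens in CPM (log axis), with open circles for the 2 control libraries and filled squares for the 2 Lin28a+ libraries, coloured by class; n.s. marks genes with an adjusted p of 0.05 or more. Col1a2, Col18a1 and Col8a1 lie more than 10-fold lower in both Lin28a+ libraries, and Col4a1 and Col4a2 lie above both control libraries.

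Of the other collagens, Col8a1, a short-chain network collagen of vessel walls and cornea, was at 11.99 and 10.6 CPM in control against 0.786 and 0.409 CPM in Lin28a+ input. It fell by 4.17 ± 0.23 (adjusted p = 5.8e-05). Col12a1, which decorates fibrils of type I collagen, was at 50.6 and 51.8 CPM in control against 31.8 and 29.2 CPM in Lin28a+ input, a log2 fold change of -0.75 ± 0.06 (adjusted p = 0.00017). Col6a1, a chain of the beaded type VI collagen that surrounds muscle fibres, was at 19.3 and 21.2 CPM in control against 10.6 and 11.4 CPM in Lin28a+ input (-0.88 ± 0.09, adjusted p = 0.00043). The groups of all 3 genes did not overlap, as for 84.8% of all genes tested. Col19a1, a fibril-associated collagen, was at 2.44 and 3.06 CPM in control against 0.393 and 0.409 CPM in Lin28a+ input, and fell by 2.72 ± 0.34 (adjusted p = 0.0011), a change that DESeq2 did not call (adjusted p = 0.063). Col25a1, a transmembrane collagen, and Col7a1, the anchoring fibril collagen of skin, did not pass (-0.50 ± 0.15, adjusted p = 0.071, and 0.28 ± 0.09, adjusted p = 0.29). Some other settings called fewer collagens. DESeq2 called 8 (2 higher and 6 lower) and 3039 of all genes, against 6432 in edgeR. With at least 10 counts in every library, 8 of 11 collagens and 5925 of all genes passed. The 15 collagens of the input that were too low to test, among them Col6a2, Col6a3, Col10a1 and Col24a1, stood at no more than 2.41 CPM in any library.

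The starts of the type IV pair are shown because they share a region, and those of Col1a2 and Col18a1 because both genes fell. The RefSeq windows (GRCm38.p6, 250 bases before to 50 after the start) run 5′ to 3′ on the strand of the gene, and capitals mark CCAAT or GGGCGG on either strand. The windows of Col4a1 (chr8:11312777-11313076, minus strand) and Col4a2 (chr8:11312555-11312854, plus strand) share 78 bases. Those of Col1a2 (chr6:4505368-4505667, plus strand) and of the outer of the 2 listed Col18a1 starts (chr10:77166481-77166780, minus strand) follow.
Col4a1: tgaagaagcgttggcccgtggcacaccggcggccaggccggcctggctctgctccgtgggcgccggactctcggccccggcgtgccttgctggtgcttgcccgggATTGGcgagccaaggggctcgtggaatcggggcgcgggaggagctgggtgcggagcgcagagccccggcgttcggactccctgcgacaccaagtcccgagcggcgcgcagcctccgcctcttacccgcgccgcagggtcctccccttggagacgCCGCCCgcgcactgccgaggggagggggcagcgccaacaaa
Col4a2: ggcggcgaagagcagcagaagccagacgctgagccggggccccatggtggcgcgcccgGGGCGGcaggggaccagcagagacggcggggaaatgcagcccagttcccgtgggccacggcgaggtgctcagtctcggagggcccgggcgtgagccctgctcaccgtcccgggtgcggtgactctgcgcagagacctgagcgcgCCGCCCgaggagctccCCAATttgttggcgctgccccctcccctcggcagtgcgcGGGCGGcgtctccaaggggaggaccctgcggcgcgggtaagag
Col1a2: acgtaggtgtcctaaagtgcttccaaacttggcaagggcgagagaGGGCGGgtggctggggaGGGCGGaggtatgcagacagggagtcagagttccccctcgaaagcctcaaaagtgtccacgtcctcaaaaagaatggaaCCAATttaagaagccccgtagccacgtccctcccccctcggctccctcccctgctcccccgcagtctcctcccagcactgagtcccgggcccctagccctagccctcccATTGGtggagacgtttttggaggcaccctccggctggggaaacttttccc
Col18a1: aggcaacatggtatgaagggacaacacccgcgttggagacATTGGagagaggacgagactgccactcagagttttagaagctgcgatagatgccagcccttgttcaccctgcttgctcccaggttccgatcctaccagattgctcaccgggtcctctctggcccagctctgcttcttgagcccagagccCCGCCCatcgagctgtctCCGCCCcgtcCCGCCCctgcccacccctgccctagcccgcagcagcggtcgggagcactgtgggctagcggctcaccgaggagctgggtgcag

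None of these 4 windows holds TATAAA, which 13.6% of 32851 RefSeq promoter windows of the same length hold on either strand. Col4a1 holds 1 CCAAT and 1 GGGCGG, Col4a2 holds 1 and 3, Col1a2 holds 2 and 2, and Col18a1 holds 1 and 3. Over all windows, 37.4% hold CCAAT and 35.7% hold GGGCGG. Both type IV windows are rich in G and C, at 74% for Col4a1 and 73.7% for Col4a2, against 61% for Col1a2 and 63.3% for Col18a1 and a median of 52.7% over all windows. An Igf2bp3-RIP peak (chr8:11312695-11313009) and a Lin28a-RIP peak (chr8:11312554-11313683) span both starts. That Igf2bp3-RIP peak, annotated to Col4a1, had 235 and 462 reads in control and 607 and 1404 in Lin28a+ MuSCs, and the Lin28a-RIP peak had 8019 and 7486 reads.

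In the m6A-RIP, summed per gene, Col18a1, Col1a2 and Col5a2 fell and Col4a1 and Col4a2 rose, as they did in the input. Of 17 collagens with m6A-RIP counts, 3 were higher and 8 lower, against 32.5% and 33.8% of 9416 genes (66.3% in either direction). The median log2 fold change was -0.17 over these collagens and 0.01 over all genes. Col18a1 was at 739 and 762 CPM in control against 43.8 and 43.6 CPM in Lin28a+ MuSCs, and fell by 4.10 ± 0.05 (adjusted p = 2.4e-14). Col1a2 was at 66.0 and 69.0 CPM in control against 2.57 and 1.83 CPM in Lin28a+ MuSCs, and fell by 4.96 ± 0.12 (adjusted p = 6.9e-12). Col5a2 was at 222.9 and 226.9 CPM in control against 72.9 and 68.3 CPM in Lin28a+ MuSCs, and fell by 1.67 ± 0.05 (adjusted p = 1.9e-11). In the opposite direction, the type IV chains rose. Col4a1 was at 144 and 141 CPM in control against 236 and 240 CPM in Lin28a+ MuSCs (0.74 ± 0.04, adjusted p = 8.5e-09). Col4a2 was at 170 and 154 CPM in control against 243 and 239 CPM in Lin28a+ MuSCs (0.57 ± 0.05, adjusted p = 5.9e-07). No library of one group reached the range of the other for any of these 5 genes, which was so for 82.6% of all genes in the m6A-RIP.

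The m6A-RIP table gives no positions, so the place of its rows in the genome could not be checked for any gene. Col12a1 fell by 1.31 ± 0.17, Col6a1 by 0.78 ± 0.18 and Col5a1 by 0.17 ± 0.04. Col9a2 and Col9a3 encode chains of a cartilage collagen. Col9a3 was at 153 and 163 CPM in control against 174 and 178 CPM in Lin28a+ MuSCs (0.16 ± 0.04, adjusted p = 0.0072). This rise did not pass with scaling to total counts (adjusted p = 0.27) and shrank to 0.11 without control m6A-RIP replicate 1. Col9a2 fell by 0.59 ± 0.12, but its row names a transcript whose Igf2bp3-RIP peaks lie in the neighbouring gene Zmpste24. Neither gene had a value in the input. The same holds for Col6a6 (417 and 365 against 446 and 413 CPM) and Col8a2 (106 and 115 against 120 and 116 CPM), which did not pass as sums per gene (0.13 ± 0.06 and 0.10 ± 0.05) but passed as single rows (log2 fold changes of 0.19 and 0.15). Col6a6 also passed in DESeq2 (adjusted p = 0.047) and without control replicate 1 (0.00020), and Col8a2 without control replicate 2 (0.023). Col3a1 (-0.14 ± 0.06), Col26a1 (-0.34 ± 0.18), Col25a1 (0.03 ± 0.23) and Col7a1 (-0.01 ± 0.20) did not pass. With scaling to total counts, which moved the median of all genes by -0.10, Col8a2 and Col25a1 turned to -0.005 and -0.07, and Col3a1 (-0.24, adjusted p = 0.0053) and Col26a1 (-0.44, adjusted p = 0.048) passed. Without Lin28a+ library b, Col3a1 (adjusted p = 0.032), Col26a1 (0.0019) and Col6a6 (0.017) passed. Col19a1 was at 664 and 423 CPM in control against 159 and 264 CPM in Lin28a+ MuSCs and was called lower (-1.36 ± 0.21, adjusted p = 8.3e-05). Its input level was at most 3.06 CPM, and the only Lin28a-RIP peak annotated to it lay in the pseudogene Gm10222.

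Of the 17 collagens, 8 had 1 m6A-RIP row and the others 2 to 10. Of the 56 collagen rows, 19 were higher and 22 lower, against 30.0% and 31.8% of 18881 rows (61.8% in either direction). All 8 Col4a1 rows rose, by 0.70 to 0.88 on the log2 scale, and all 7 Col18a1 rows fell (-4.22 to -3.77). Of 7 Col4a2 rows, 6 rose by 0.74 to 0.97, and 1 fell by 0.62 ± 0.08 (adjusted p = 1.0e-05). That row was at 38.3 and 38.5 CPM in control against 24.4 and 25.6 CPM in Lin28a+ MuSCs, so that its groups were apart in the direction opposite to the other 6. The 4 Col5a2 rows fell (-1.72 to -1.37). The 2 Col1a2 rows fell as well (-2.92 and -5.48), and 1 of 10 Col5a1 rows passed the test (-0.22 ± 0.05). For Col19a1, 2 low rows rose and 4 rows of a much higher level fell.

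The m6A-RIP change was also set against the RNA change in 1 model, where collagens passed about as often as all genes. Of 13 collagens in both tables, only Col4a1 passed the test of the difference, where 7.14% of 7943 genes passed (4.09% with a lower m6A-RIP change). An unadjusted p under 0.05 was found for 5 of the 13 and for 1350 of all genes. These 5 were Col4a1, Col5a2, Col12a1, Col18a1 and Col4a2, each with an m6A-RIP change below its RNA change. The m6A-RIP rise of Col4a1 was smaller than its RNA rise by 0.22 ± 0.05 on the log2 scale (adjusted p = 0.029). The call was lost without any 1 of the input libraries (adjusted p of 0.086 and 0.20 without a control and 0.11 and 0.15 without a Lin28a+ library) and without control m6A-RIP replicate 1 (adjusted p = 0.065), and it rests on a small difference. The differences were -0.20 ± 0.06 for Col5a2, -0.23 ± 0.07 for Col18a1, -0.18 ± 0.07 for Col4a2 and -0.57 ± 0.18 for Col12a1, with adjusted p from 0.079 to 0.19. For Col1a2 the difference was -0.26 ± 0.35, a wide margin because few Lin28a+ reads remained.

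**Figure D2:**
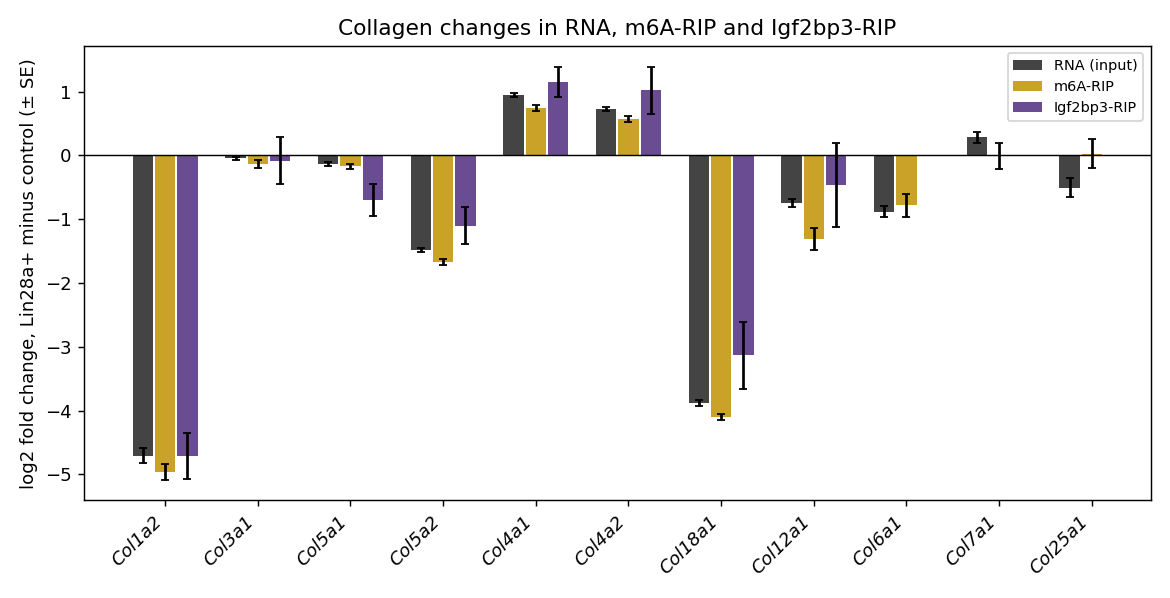
Log2 fold change (Lin28a+ minus control, bars, with SE as error bars) of 11 collagens in RNA, m6A-RIP and Igf2bp3-RIP summed per gene; a missing bar means no counts in that assay. Col1a2, Col5a2 and Col18a1 lie below 0 and Col4a1 and Col4a2 above 0 in all 3 assays, with larger errors in the Igf2bp3-RIP.

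In the Igf2bp3-RIP, the strongest change among collagens was again that of Col1a2. Of 70 peaks annotated to collagens, 3 passed the test, all 3 lower and all 3 in Col1a2, where 0.0616% of 19465 peaks were called lower and 0.123%, or 24 peaks, in either direction. The peak at chr6:4540383-4540850 was at 33.9 and 41.9 CPM in control against 1.75 and 0.859 CPM in Lin28a+ MuSCs and fell by 4.95 ± 0.44 (adjusted p = 0.042). The peak at chr6:4538473-4538687 was at 16.2 and 28.4 CPM in control against 0.954 and 0.830 CPM in Lin28a+ MuSCs (-4.66 ± 0.44), and that at chr6:4541099-4541320 was at 12.4 and 16.6 CPM in control against 0.875 and 0.659 CPM in Lin28a+ MuSCs (-4.29 ± 0.38). All 3 lie near the 3′ end of the gene. Summed per gene, Col1a2 was at 60.01 and 90.9 CPM in control against 3.38 and 2.48 CPM in Lin28a+ MuSCs and fell by 4.71 ± 0.36 (adjusted p = 0.0097). It was the 1 collagen of 11 to pass, against 0.287% of 4527 genes (0.155% lower).

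The remaining Igf2bp3-RIP changes did not pass the test, which did not take the replicate number as a block. With that block more collagen peaks and genes passed, as given in the last section. Over all 19465 peaks, the groups did not overlap in 31.8% (15.0% higher and 16.8% lower in Lin28a+ MuSCs), and 1017 had an unadjusted p under 0.05. All 6 Col4a1 peaks and all 5 Col4a2 peaks had higher levels in both Lin28a+ libraries than in either control library, with log2 fold changes of 0.96 to 1.36, and 10 of these 11 had an unadjusted p under 0.05. All 10 Col5a2 peaks lay lower without overlap (-1.28 to -1.0), as did both Col18a1 peaks (-3.22 and -2.89), with adjusted p of 0.15 or more in all 12. Summed per gene, Col4a1 was at 221 and 268 CPM in control against 466 and 621 CPM in Lin28a+ MuSCs (1.15 ± 0.24, adjusted p = 0.20). Col18a1 was at 182 and 346 CPM in control against 43.0 and 17.7 CPM in Lin28a+ MuSCs (-3.13 ± 0.53, adjusted p = 0.12). DESeq2 called both Col4a1 (adjusted p = 0.0050) and Col18a1 (1.6e-08), and edgeR called Col18a1 with any 1 library left out (adjusted p of 4.2e-05 to 0.010) and Col4a1 and Col4a2 without Lin28a+ replicate 1 (0.039 each). DESeq2 also called Col5a2 (0.031). The common coefficient of variation of the Igf2bp3-RIP peaks was 27.9%, against 2.48% in the input. Leaving out 1 library raised the number of called collagen peaks to 12 (control replicate 1), 5 (control replicate 2) or 7 (either Lin28a+ replicate), while the calls over all peaks rose from 24 to between 108 and 193. DESeq2 called 16 collagen peaks of 263 in all, and a minimum of 10 counts in every library left none of any gene. The 19 Col12a1 peaks and the 5 Col3a1 peaks overlapped between the groups.

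**Figure D3:**
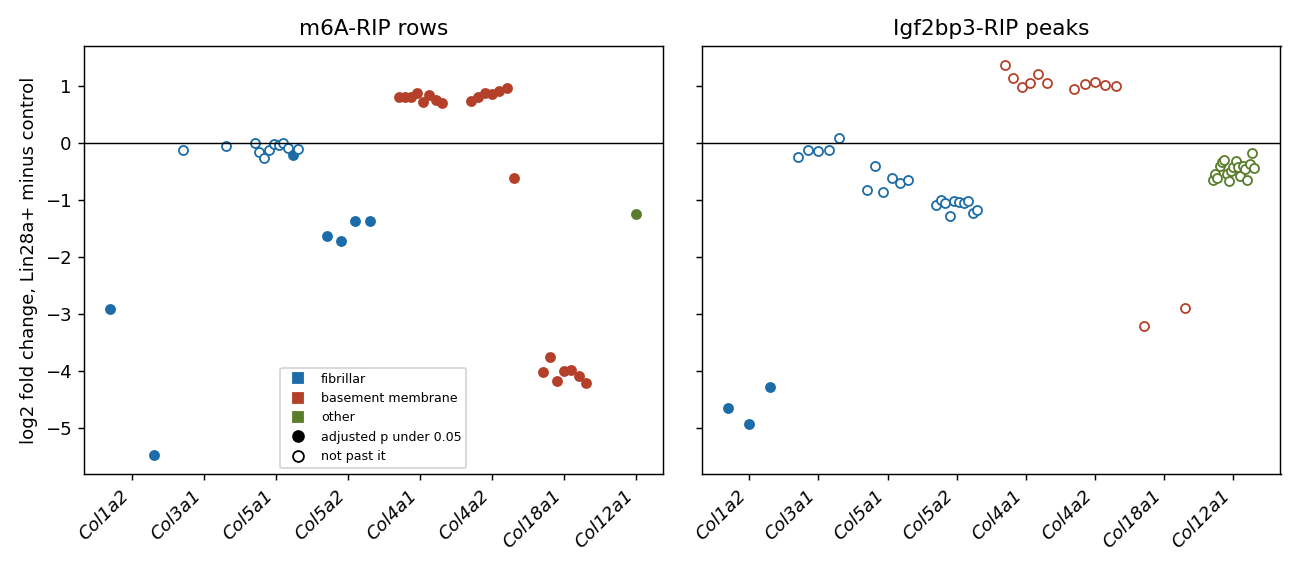
Log2 fold change (Lin28a+ minus control) of each m6A-RIP row and each Igf2bp3-RIP peak in 8 collagens, coloured by class, filled where the adjusted p is under 0.05. The rows of Col4a1, Col18a1 and Col5a2 lie on 1 side of 0, the 2 Col1a2 rows lie apart at -2.92 and -5.48, and 1 Col4a2 row lies at -0.62 while the other 6 lie above 0.7.

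Relative to RNA, no collagen of 9 passed in the Igf2bp3-RIP (edgeR), where 1.05% of 3922 genes did, and limma voom also called none. An unadjusted p under 0.05 was found for 1 of the 9 and for 944 of all genes. That gene was Col5a1, whose Igf2bp3-RIP change was lower than its RNA change by 0.79 ± 0.28 on the log2 scale (adjusted p = 0.15). The differences for Col1a2 (-0.23 ± 0.48), Col4a1 (-0.02 ± 0.25), Col4a2 (0.06 ± 0.45), Col5a2 (0.16 ± 0.31) and Col18a1 (0.52 ± 0.63) were all smaller than their standard errors. The spread of the Igf2bp3-RIP limits this comparison, and the larger difference of Col5a1 did not pass either.

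Not every peak annotated to a collagen lay in it. Of the 70 Igf2bp3-RIP peaks, 56 lay in their own gene. The 9 peaks annotated to Col14a1 lay in Deptor, an inhibitor of mTOR signalling, on chromosome 15. They were lower without overlap in Lin28a+ MuSCs (log2 fold changes of -1.91 to -1.65), as were 16.8% of all peaks. None of the 9 passed edgeR's test (adjusted p of 0.13 to 0.47), nor did their sum (0.075), which DESeq2 called at 8.6e-07. The 2 peaks annotated to Col17a1 lay in Slk on chromosome 19 and the 3 annotated to Col9a2 in Zmpste24 on chromosome 4. Keeping only peaks in their own gene left 8 collagens and the same 3 called peaks, all in Col1a2, a choice made after these positions were seen. Of the 277 Lin28a-RIP peaks, 271 lay in their own gene. The other 6 lay in Slk, Zmpste24, Col4a2 (annotated to Col4a1) and the pseudogene Gm10222 (annotated to Col19a1).

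In the Lin28a-RIP, collagens took a far larger share of the reads than in any other assay of the same cells. They held 2.25% and 2.18% of the reads in Lin28a-RIP peaks, compared with 0.133% and 0.130% in the Lin28a+ input, 0.183% and 0.190% in the m6A-RIP and 0.215% and 0.285% in the Igf2bp3-RIP. The assays count different things (peaks or genes, after separate peak calls), and there is no Lin28a-RIP of control MuSCs, so these shares are a description. The basement membrane collagens held 1.34% and 1.30%, the fibrillar collagens 0.75% and 0.72% and the others 0.16% and 0.16% of the Lin28a-RIP reads. In the Lin28a+ input the basement membrane and fibrillar shares were nearly alike, at 0.065% and 0.063% against 0.062% and 0.061%.

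Peaks were annotated to 12 collagens (4 fibrillar, 3 basement membrane and 5 others) and lay in 9 of them, among 3491 genes with a peak. Of these, 7 collagens with 11 or more peaks each held 99.1% and 99% of the collagen reads. Col4a1 stood out, with 39 annotated peaks and 267748 and 242637 reads, rank 11 of all genes by reads, and Col4a2 had 37 peaks and 215278 and 188494 reads, rank 15. Among the fibrillar collagens, Col5a1 had 50 peaks (107989 and 95002 reads), Col3a1 31 peaks (97928 and 88126 reads) and Col5a2 40 peaks (66241 and 61223 reads). Col12a1 had the most peaks of any collagen, 56, with 51878 and 48826 reads. These 6 genes are among the 193 genes (5.53%) with 20 or more peaks, where the median gene had 3. Col18a1, the basement membrane collagen that fell in RNA, had 11 peaks and 9206 and 8073 reads. Col11a1 had 7 peaks with 1454 and 1244 reads, and Col6a1 had 1 with 129 and 83 reads. Col17a1, Col19a1 and Col9a2 had 2, 1 and 2 annotated peaks, none of them in the gene itself. No Lin28a-RIP peak was annotated to Col1a2.

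Read against their own input level in Lin28a+ MuSCs, most of these collagens lay above the typical gene. The ratio of Lin28a-RIP to input CPM had a median of 3.16 over 2868 genes with both values. It was 46.8 for Col12a1, 38.8 for Col4a1, 22.6 for Col3a1, 17.2 for Col5a2, 16.6 for Col11a1, 13.7 for Col4a2, 8.07 for Col18a1 and 7.84 for Col5a1, and 0.271 for Col6a1. Longer transcripts offer more room for peaks and were not corrected for, and the input values may be averages over transcripts, so the order of the genes by this ratio is not read further. Per kilobase of peak, Col4a1 had 460 CPM, Col4a2 399 CPM and Col3a1 241 CPM, against 173 CPM for Col5a1, 151 CPM for Col5a2, 72.3 CPM for Col18a1, 70.6 CPM for Col12a1 and a median of 47.3 CPM over genes, and Col11a1 (15.8 CPM) and Col6a1 (12.2 CPM) lay below that median.

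The Lin28a-RIP peaks ran along the transcribed part of the genes and lay mostly towards the 3′ end, with Col11a1 as an exception (3 of 7 peaks). In the 7 genes with a peak of their own and a known strand, 150 of 175 peaks (85.7%) had their centre closer to the 3′ than to the 5′ end of the gene's span, compared with 68.5% of 14912 Lin28a-RIP peaks over 2092 genes. The span includes introns, and places along the spliced transcript were not measured, so these shares are not read as a preference of binding. The highest Lin28a-RIP peak of Col4a1 (chr8:11198457-11200076, 34583 and 32433 reads) ended 34 bases from the annotated 3′ end and held 13.4% of the gene's reads. That of Col4a2 (chr8:11447892-11449281, 28734 and 26104 reads) ended 6 bases from its 3′ end and held 13.6%. In Col5a1 the highest peak (chr2:28036682-28039115) lay 395 bases and in Col3a1 (chr1:45348412-45348966) 740 bases from the 3′ end. Each of these 4 peaks overlapped an Igf2bp3-RIP peak.

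**Figure D4:**
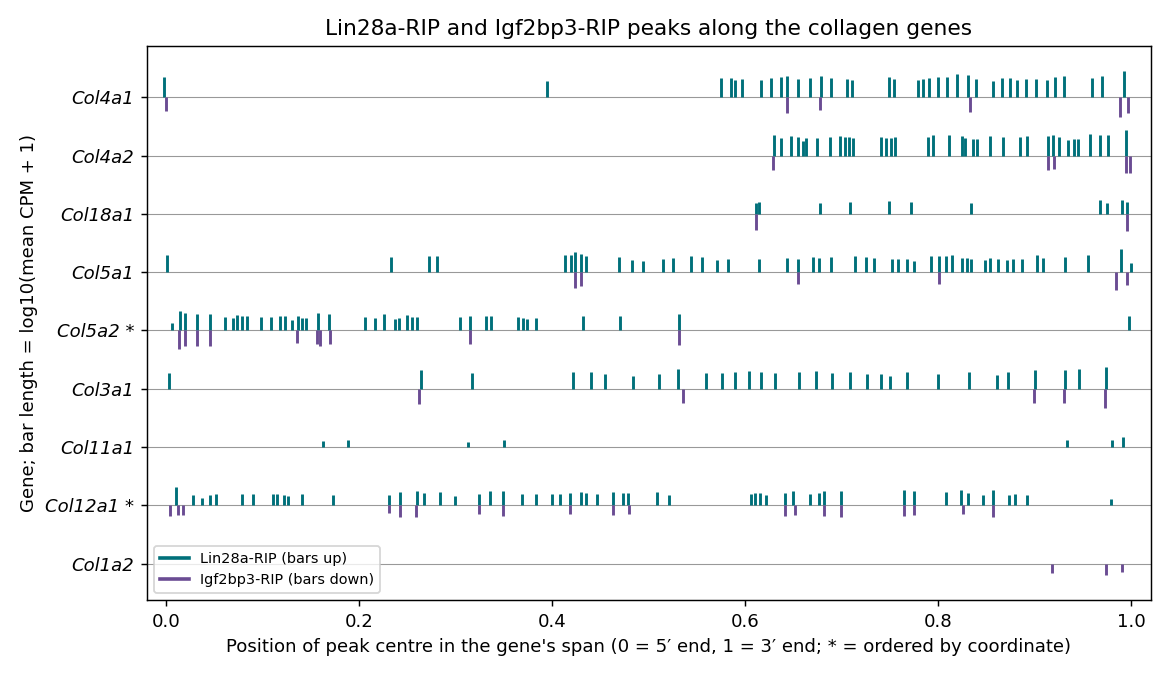
Centres of the Lin28a-RIP peaks (bars up) and Igf2bp3-RIP peaks (bars down) of 9 collagens along the span of the gene from 0 to 1, with bar length log10(mean CPM + 1); Col5a2 and Col12a1, marked *, are ordered by coordinate because their strand was not in the table used. The Lin28a-RIP peaks of Col4a1, Col4a2 and Col18a1 lie mostly closer to the 3′ end, and Col1a2 has Igf2bp3-RIP peaks only.

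Of the 70 Igf2bp3-RIP peaks annotated to collagens, 57 (81.4%) overlapped a Lin28a-RIP peak by at least 1 base, compared with 60.4% of all 19465 Igf2bp3-RIP peaks. Of the 56 that lay in their own collagen, 53 did (94.6%), a filter that was not applied to the 60.4% over all peaks. The 3 without overlap were the Col1a2 peaks. Lin28a-RIP exists only for Lin28a+ MuSCs, where Col1a2 was at 1.97 and 1.23 CPM in the input. Seen from the other side, 51 of 277 Lin28a-RIP peaks of collagens (18.4%) shared a base with one of Igf2bp3, compared with 52.4% of all 21616. By class, the shares were 14.8% of 128 fibrillar, 12.6% of 87 basement membrane and 33.9% of 62 other peaks. The peaks of a gene share its transcript and are not independent, so these shares carry no test.

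Of 19 tested genes that modify and fold collagen chains, 5 rose and 4 fell (median log2 fold change -0.03), which was no more than the 28.1% and 28.7% of all genes. Ppib, a peptidyl-prolyl isomerase, rose by 0.68 ± 0.02, Serpinh1, the collagen chaperone HSP47, by 0.51 ± 0.02, and P3h4, a partner of lysyl hydroxylation, by 0.42 ± 0.04. P3h2, a prolyl hydroxylase that acts on type IV collagen, fell by 3.06 ± 0.40, from 2.997 and 2.41 CPM to 0.197 and 0.409 CPM. Fkbp14 fell by 0.61 ± 0.09 and the export factor Mia3 by 0.69 ± 0.11. Peaks in the Lin28a-RIP were annotated to 8 of the 20 listed genes, among them Serpinh1, Ppib, Plod2 and P4ha1. They were also annotated to 2 of 13 cleavage and cross-linking genes, 2 of 10 receptors and 1 of 7 degrading enzymes. Over all named genes, 3491 of 16545 had a peak. Whether the peaks of these lists lay in the genes themselves was not checked.

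Of 8 tested genes that trim and cross-link collagen outside the cell, 3 rose and 4 fell (median -0.42), where 56.8% of all genes were called in either direction, and the lysyl oxidases went apart. Loxl2, which acts on type IV collagen, rose by 3.81 ± 0.22, from 0.937 and 1.29 CPM in control to 14.3 and 17.8 CPM in Lin28a+ input (adjusted p = 6.6e-05), and Loxl1 rose by 0.47 ± 0.05. Lox, which cross-links fibrillar collagen, fell by 1.85 ± 0.07, from 32.8 and 31.5 CPM to 9.04 and 8.79 CPM (adjusted p = 1.8e-05). The groups were far apart for both. The procollagen protease Adamts14 fell by 1.93 ± 0.05, from 98.3 and 101 CPM to 25.7 and 26.8 CPM (adjusted p = 6.6e-06). Of the enhancers of procollagen cleavage, Pcolce rose by 0.59 ± 0.06 and Pcolce2 fell by 0.73 ± 0.05.

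Of 5 tested collagen receptors 3 fell and none rose (median -0.88), a number of calls near the 56.8% of all genes. The integrin chain Itgb1 was at 888 and 880 CPM in control against 435 and 440 CPM in Lin28a+ input and fell by 1.01 ± 0.02 (adjusted p = 5.7e-06). Mrc2, an endocytic collagen receptor, fell by 1.87 ± 0.09, and Ddr1, a collagen receptor kinase, by 0.39 ± 0.04. Of 2 tested collagen-degrading enzymes, the membrane protease Mmp14 fell by 0.23 ± 0.05, and Mmp2 did not pass (-0.57 ± 0.20, adjusted p = 0.10). In the m6A-RIP, 3 of 9 tested modification genes were higher and 3 lower, as were 3 and 4 of 7 cross-linking genes, 2 and 2 of 7 receptors and none of 1 protease, where 66.3% of all genes were called. In the Igf2bp3-RIP none of the 11 tested genes of these lists passed edgeR's test or had an unadjusted p under 0.05.

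**Figure D5:**
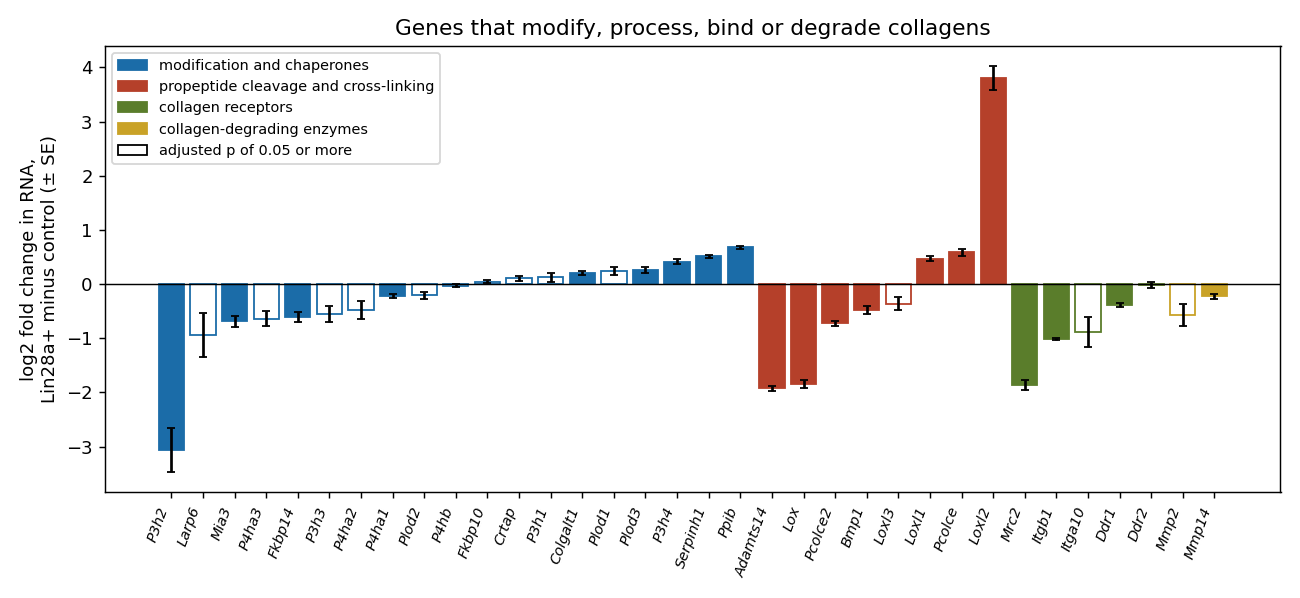
Log2 fold change in RNA (Lin28a+ minus control, bars, with SE as error bars) of the tested genes that modify, process, bind or degrade collagens, filled where the adjusted p is under 0.05. Loxl2 lies far above 0 at 3.81, while P3h2, Adamts14, Mrc2, Lox and Itgb1 lie below -1.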

How the data were processed

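Input, m6A-RIP, Igf2bp3-RIP and Lin28a-RIP tables were analysed. Per the labels and the study's methods, reads were aligned with HISAT2 (2.0.4 in the submitters' processing notes), peaks were called with MACS2 (1.4.3) and DESeq2 (1.42.0) was used. The notes name both GRCh38 and mm10, and peak positions matched mouse genes of GRCm38. Values deposited for the RIPs are raw counts by peak. Input values, as deposited, are estimated counts by gene that the authors made with a tool not named here, many of them whole multiples of a fraction, as a mean over transcripts would give, and these were rounded before the tests. How reads were counted, whether strand was used and on which libraries peaks were called is not given in the sources used here.

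Columns were assigned by name. In the input table the Lin28a+ columns are headed as m6A-RIP libraries, and in the m6A-RIP table both Lin28a+ columns share a heading, so these columns were assigned to their table's assay and to Lin28a+ MuSCs without a replicate number. Symbols were matched through RefSeq for 99.96% to 99.98% of rows. Collagen members, classes and gene lists were chosen with earlier results of these data known. Every collagen that passed the RNA filter is named, with values per library for the 12 called members of highest mean CPM, the 3 rising and 3 falling called members of lowest p in each other test, and log2 fold changes for the 3 rising and 3 falling genes of lowest p in each pathway list.

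Differences were tested with edgeR 4.0.16 (quasi-likelihood, TMM factors, filterByExpr) in R 4.3.3, with Benjamini-Hochberg adjustment over all features and a threshold of 0.05. RIP changes relative to RNA were tested as an interaction of cells and assay, with TMM within each assay. CPM use TMM-scaled library sizes, except those of the Lin28a-RIP, which use total counts. The tests were checked on simulated data. DESeq2 1.42.0, limma 3.58.1 (voom), other size factors, filters and left-out libraries were the alternatives. Promoter sequences are RefSeq's, found for 29 of 37 members.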

Additional observations from a re-analysis of the deposited data

How the results depend on the processing

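Every collagen called in RNA or in m6A-RIP summed per gene with the settings of the report kept its direction under the alternatives run. In RNA, DESeq2 called 8 collagens and a minimum of 10 counts in every library 8 of 11, and 10 to 14 were called with 1 library left out. The RNA medians then ran from -0.619 to -0.082 (fibrillar, where Col1a1 changed sign) and from -0.518 to 0.736 (basement membrane, where more low genes were tested). With total counts the m6A-RIP medians were -1.023 (fibrillar), 0.468 (basement membrane) and -0.279 (other), and Col25a1 and Col8a2 turned to -0.07 and -0.005. Without 1 library the m6A-RIP median of other collagens was -0.312 to -0.075. For m6A relative to RNA, a minimum of 10 counts left 0 calls, limma voom gave 2, and leaving out 1 library gave 0 (any input library or control m6A-RIP replicate 1) to 2 (any other m6A-RIP library). Igf2bp3-RIP counts depended most on the setting. Against 3 peaks, DESeq2 called 16, minimums of 10 and 100 counts called 0, and 5 to 12 were called without 1 library. Against 1 gene, DESeq2 called 5, and 3 (without either control replicate or Lin28a+ replicate 2) to 5 (without Lin28a+ replicate 1) were called. With the replicate number as a block, 42 peaks (1988 of all peaks) and 7 genes (374 of all genes) were called and Col3a1 turned to 0.011. The differences between replicates correlated at 0.686 between the groups, but no label ties equal numbers to an animal or batch and there are 2 pairs, so the numbers were taken as names and the unblocked test was kept. No block could be had for the input and m6A-RIP, whose Lin28a+ columns carry no usable number. The Igf2bp3-RIP median of other collagens was -0.991 to 0.199 without 1 library, but 3 of its 4 genes (Col14a1, Col17a1 and Col9a2) have their peaks in another gene. None of the following changes of sign concerned a call. Without 1 library, RNA of Col1a1 ran from -1.411 to 0.792, m6A-RIP of Col25a1 from -0.168 to 0.306 and of Col7a1 from -0.105 to 0.067, and m6A relative to RNA of Col1a2 from -0.552 to 0.129 and of Col6a1 from -0.024 to 0.198. Igf2bp3-RIP ran from -1.383 to 0.569 for Col12a1, from -0.515 to 0.554 for Col3a1 and from -0.598 to 0.04 for Col17a1. Relative to RNA it ran from -0.265 to 5.617 for Col17a1, -0.211 to 0.192 for Col4a1 (0.109 with total counts), -0.52 to 0.16 for Col1a2, -0.88 to 1.093 for Col12a1, -0.426 to 0.46 for Col4a2, -0.096 to 0.466 for Col5a2, -0.703 to 0.375 for Col3a1 and -0.225 to 1.071 for Col18a1. Multiplying the input by the number that makes it whole, an alternative chosen after seeing the data, called 16 of 23 collagens and 7407 of all genes. Lin28a-RIP peaks fell to 10 collagens with at least 2 peaks, 11 with at least 100 counts and 9 with peaks in the gene itself, and 35 peaks overlapped Igf2bp3 when each had to cover 50% of the other. The cause of these differences was not tested. Depth limits collagens below a few counts per library. Intervals in the Igf2bp3-RIP are wide, and the common coefficient of variation of its peaks was 27.9%, against 2.48% in the input.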
